A study of Mus musculus with 6 samples.

Results

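State-only CTCF peaks that lie beside a CTCF site listed in both states were described in mouse muscle stem cells. The members were selected on the deposited peak lists themselves. An interval was taken when it overlapped no interval of the other list and its midpoint lay within 10 kb of the midpoint of a shared site. A shared site is an interval of the quiescent list that overlaps an interval of the freshly isolated list by 1 bp or more. The rule was applied to the 19 autosomes and found 944 members in the quiescent list and 1599 in the freshly isolated list, 2543 of 36923 intervals in both lists together. Overlap and distance chose the members, so counts by overlap or by distance below are descriptions.

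The series profiled CTCF by ChIP-seq, which sequences the DNA fragments that an antibody recovers from sheared chromatin, in satellite cells, which are the resident stem cells of skeletal muscle and express Pax7. Quiescent cells (QSC) and freshly isolated cells (FISC) have 2 ChIP libraries and 1 input library each, 6 libraries in all. Every group comes from skeletal muscle of C57BL/6 mice with the genotype Pax7-nGFP at postnatal day 38, and the labels name no treatment and no further allele. Pax7-nGFP is a nuclear green fluorescent reporter that marks cells in which the Pax7 gene is active. Each state is represented by 1 deposited list of intervals with no height, score or p-value, so no value below has a replicate error. The lists hold no expression values, so the labelled cell type could not be checked against marker genes. Coordinates are mm9 and count from 1.

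CTCF is a zinc finger protein that recognises a long DNA motif. With the ring-shaped cohesin complex it halts loop extrusion and so anchors chromatin loops and the borders of topological domains. Such borders often carry several CTCF sites close together, and neighbouring sites may share the work of stopping cohesin. Satellite cells are quiescent in resting muscle, and taking them out of the tissue is known to start their activation.

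A larger share of the FISC-only than of the QSC-only peaks lay beside shared sites. Of the 9900 autosomal FISC-only intervals, 1599 were within 10 kb of a shared midpoint (16.2%, 95% Wilson interval 15.4 to 16.9). Of the 11441 QSC-only intervals, 944 were (8.25%, 7.76 to 8.77). The ratio of these percentages was 1.96 (95% interval 1.81 to 2.11). The intervals cover counting error only, since 1 list stands for each state. Among all autosomal intervals, 61.3% of the QSC list and 57.8% of the FISC list had no partner in the other list. Among QSC intervals with a further shared site within 10 kb, 944 of 2332 (40.5%, 38.5 to 42.5) were QSC-only. The matching number in FISC was 1599 of 2950 (54.2%, 52.4 to 56.0). These last shares use the overlap that chose the members, and nothing is read from them. Shared sites themselves had another shared site within 10 kb in 19.2% of QSC intervals (18.3 to 20.1) and in 18.7% of FISC intervals (17.8 to 19.6).

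The outermost QSC-only member lay 9998.5 bp from its shared midpoint, at chr7:148116888-148117228, and the first QSC-only interval outside lay at 10004.5 bp, at chr1:39594321-39594581. The outermost FISC-only member lay at 9987 bp, at chr2:173054906-173055542, and the first FISC-only interval outside at 10007.5 bp, at chr7:133965272-133965792. The next members inward lay at 9990.5 and 9940 bp in QSC and at 9983.5 and 9979 bp in FISC, and the next intervals outward at 10013 and 10017.5 bp and at 10031 and 10031.5 bp. Distances thus ran on across the limit in both lists.

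Within the limit, members of both classes were fewer at 9 to 10 kb than at 1 to 2 kb from the shared site, without a steady fall. The median distance was 4220.5 bp for QSC-only members (95% order-statistic interval 3964 to 4482.5) and 4124 bp for FISC-only members (3928 to 4379). Both are values of the distance that chose the members, ended at the same limit. Under 1 kb there were 129 QSC-only and 140 FISC-only members, and between 1 and 2 kb there were 120 and 241. Between 9 and 10 kb there were 73 and 105. In between, QSC-only members rose from 79 at 3 to 4 kb to 98 at 4 to 5 kb. FISC-only members rose from 192 at 2 to 3 kb to 202 at 3 to 4 kb. Members lay at the lower-coordinate side of their shared site in 47.1% of QSC-only (44.0 to 50.3) and 48.3% of FISC-only cases (45.8 to 50.7), and both intervals include equal use of the sides.

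**Figure D1:**
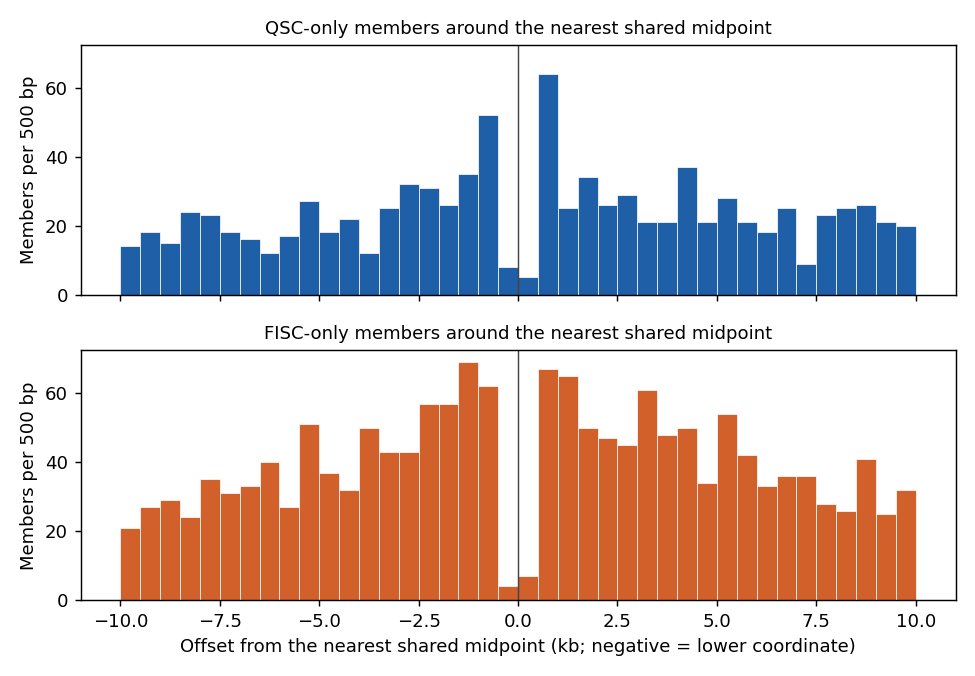
Number of QSC-only (top) and FISC-only (bottom) members in steps of 500 bp of offset from the nearest shared midpoint, negative at lower coordinates. The QSC-only bars at 500 to 1000 bp hold 116 members on both sides together, and the FISC-only bars there 128.

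Counts next to the shared site are given as a description, since distance chose the members and the steps of 500 bp were chosen after the distances had been seen. At 500 to 1000 bp there were 116 QSC-only members, against 60 at 1000 to 1500 bp and 60 at 1500 to 2000 bp. FISC-only members numbered 128, 134 and 107 in the same steps. The difference between the classes was not tested. Shared sites, by the distance to their nearest shared site, numbered 121 and 114 in the first 2 of these steps in QSC and 135 and 112 in FISC. Over whole lists, consecutive midpoints were 500 to 1000 bp apart at 211 gaps in QSC and 275 in FISC, and 1000 to 1500 bp apart at 152 and 274. The QSC list as a whole thus had more gaps in the first than in the second step. These gaps include those between members and their shared sites, so they are not a separate observation.

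Under 500 bp there were 13 QSC-only and 12 FISC-only members, where intervals of about this width leave little room for a second one without overlap. The nearest QSC-only member was chr7:120657265-120657546, 282 bp wide, 393.5 bp from the midpoint of the shared site chr7:120656872-120657152. The nearest FISC-only member was chr13:101710096-101710381, 286 bp wide, 352.5 bp from the shared site chr13:101709728-101710044. The QSC intervals of these 2 sites were 281 and 317 bp wide, so the QSC-only member was not narrower than its site. Lying nearest without overlap limits the width, so nothing is read from it. The lists also differed in how close 2 of their own intervals came, with a smallest midpoint spacing of 363 bp in QSC and 391.5 bp in FISC. In all, 37 QSC and 20 FISC gaps between consecutive midpoints were at most 500 bp. The part of this spacing in the counts next to shared sites was not tested.

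Members that touch closely on a shared interval were few. The edge of the member was under 500 bp from a shared interval of either list for 118 QSC-only members (12.5%, 95% Wilson interval 10.5 to 14.8) and 125 FISC-only members (7.82%, 6.60 to 9.24). At shared sites with a member under 1 kb away, no displacement of the interval from the other list towards the member was detectable beyond counting error. Beside QSC-only members the FISC interval of the site was shifted by a median of -1.5 bp towards the member (95% order-statistic interval -17 to 18.5, 129 members). Beside FISC-only members the QSC interval was shifted by 8.5 bp (-3 to 21.5, 139 members whose site has 1 FISC interval). Both intervals include 0. The shift was towards the member in 48.4% (40.0 to 57.0) and 55.8% of cases (47.5 to 63.8) that were not 0. The rule limits this shift, since an interval that reached the member would overlap it and the member would not be state-only. Nothing about the cause of the members is read from it.

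Set against the length of genome at each distance, FISC-only intervals became denser towards shared sites at every band down to 1 to 2 kb, and QSC-only intervals did so more weakly. The windows of 10 kb around shared midpoints took up 5.41% of the autosomal span between the first and last listed positions. They held 12.3 FISC-only intervals per Mb (95% Poisson interval 11.7 to 12.9) and 7.24 QSC-only intervals per Mb (6.78 to 7.72). At 10 to 50 kb, the same regions' surroundings, the densities were 7.61 (7.33 to 7.89) and 6.01 (5.77 to 6.27). The ratio of inner to outer density was 1.61 for FISC-only (95% exact interval 1.52 to 1.71) and 1.20 for QSC-only intervals (1.11 to 1.30). It was above 1 on 19 of 19 autosomes for FISC-only and on 15 of 19 for QSC-only intervals.

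**Figure D2:**
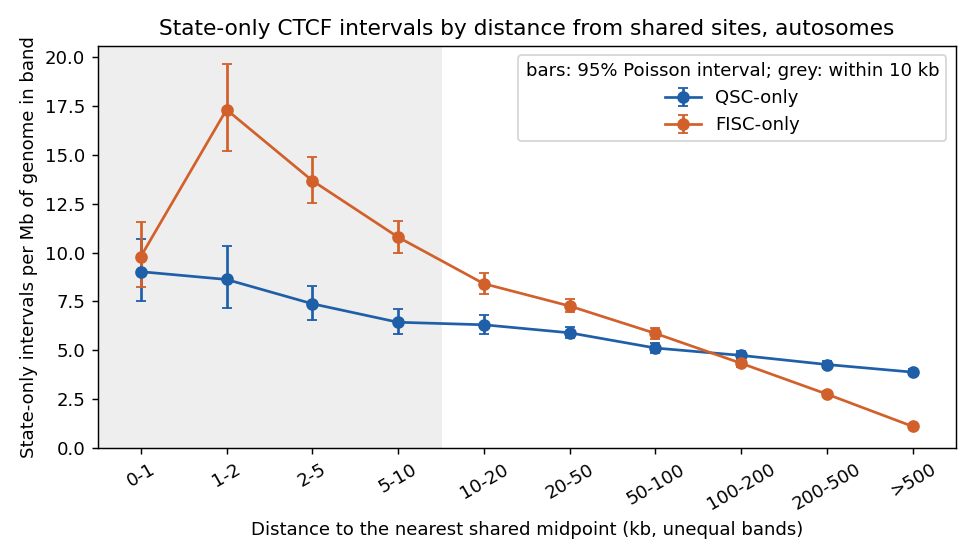
State-only intervals per Mb of autosome against distance to the nearest shared midpoint, in bands of unequal size, with 95% Poisson intervals. FISC-only density peaks at 17.3 per Mb at 1 to 2 kb and falls to 1.10 beyond 500 kb, while QSC-only density runs from 9.02 under 1 kb to 3.88 beyond 500 kb.

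The curves crossed far outside the limit. Under 1 kb from a shared midpoint there were 9.79 FISC-only (8.23 to 11.6) and 9.02 QSC-only intervals per Mb (7.53 to 10.7), with overlapping intervals. At 1 to 2 kb there were 17.3 FISC-only (15.2 to 19.6) and 8.62 QSC-only intervals per Mb (7.15 to 10.3). At 50 to 100 kb the values were 5.86 and 5.11, and at 100 to 200 kb 4.33 and 4.73. Beyond 500 kb there were 1.10 FISC-only and 3.88 QSC-only intervals per Mb. From the second band to the last, FISC-only density thus spanned a wider range than QSC-only density. A FISC-only interval can lie far from any shared site only where the FISC list has calls, and regional differences in calling between the lists move with this curve; their part in it was not tested.

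The shares are also given by how crowded the region was. In the 864 windows of 1 Mb with 1 to 3 shared sites, 4.75% of QSC-only intervals (4.13 to 5.47) and 7.86% of FISC-only intervals (6.96 to 8.86) were members. In the 513 windows with 4 to 7 shared sites the shares were 11.2% (10.1 to 12.5) and 19.05% (17.7 to 20.5). In the 271 windows with 8 or more they were 25.4% (23.4 to 27.4) and 27.5% (25.8 to 29.2), and these intervals overlap. The ratio of the shares was 1.65 (95% interval 1.37 to 1.99), 1.70 (1.49 to 1.93) and 1.08 (0.980 to 1.20) from the sparsest to the densest windows. Windows with no shared site, left out of this split, held 3033 QSC-only intervals (26.5% of the class, with 0 members) and 923 FISC-only intervals (9.32%, with 1 member). Over all windows with a shared site the shares were 11.2% (10.6 to 11.9) for QSC-only and 17.8% (17.02 to 18.6) for FISC-only intervals, a ratio of 1.59, against 1.96 over all windows, whose shares of 8.25% and 16.2% count these intervals too. Counted per 100 shared sites, there were 11.8 QSC-only and 15.4 FISC-only members in the sparsest windows, 11.6 and 22.6 in the middle group and 15.0 and 25.1 in the densest. The densest windows also held more FISC-only than QSC-only intervals in all, 2764 against 1783 or 1.55 FISC-only per QSC-only interval, and the members' ratio there was 1.68, so nothing about the members is read from their number per shared site. This split was chosen after the data were seen, and differences between groups of windows were not tested.

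Most shared sites had no member beside them. Of 7228 shared sites, 4887 (67.6%, 95% Wilson interval 66.5 to 68.7) had none, 761 (10.5%, 9.84 to 11.3) had QSC-only members alone, 1365 (18.9%, 18.0 to 19.8) FISC-only members alone, and 215 (2.97%, 2.61 to 3.39) both. A single QSC-only member lay beside 887 sites, 2 beside 85 sites and 3 beside 4 sites. A single FISC-only member lay beside 1367 sites, 2 beside 189, 3 beside 23 and 4 beside 1 site. Members can count for several shared sites: 11.5% of QSC-only members (9.66 to 13.7) and 12.4% of FISC-only members (10.9 to 14.1) had 2 or more within 10 kb. A shared site lay on either side of 58 QSC-only and 94 FISC-only members.

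Shared sites with and without a member of one class carried members of the other class in similar shares. A FISC-only member lay beside 215 of 976 shared sites with a QSC-only member (22.0%, 95% Wilson interval 19.5 to 24.7) and beside 1365 of 6252 without one (21.8%, 20.8 to 22.9). In the other direction, a QSC-only member lay beside 13.6% of the 1580 sites with a FISC-only member (12.005 to 15.4) and 13.5% of the 5648 without (12.6 to 14.4). The differences were 0.20 percentage points (95% Newcombe interval -2.50 to 3.08) and 0.13 points (-1.71 to 2.11). Where both occurred, the 251 pairs of a QSC-only and a FISC-only member were a median of 6068 bp apart (95% order-statistic interval 4904 to 6745.5). Only 30 pairs had midpoints within 1 kb, and the closest pair was 319.5 bp apart. At the 168 sites with exactly 1 member of each class, both lay on the same side in 87 cases (51.8%, 44.3 to 59.2), and the QSC-only member was the nearer one in 93 (55.4%, 47.8 to 62.7).

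Other intervals of the same list also lay near members. Another QSC-only interval was within 10 kb of 16.5% of QSC-only members (14.3 to 19.03) and of 8.80% of QSC-only intervals farther from shared sites (8.28 to 9.36). In FISC the shares were 23.5% of members (21.5 to 25.7) and 18.2% of the others (17.4 to 19.04). A FISC-only midpoint within 10 kb was found for 21.1% of QSC-only members (18.6 to 23.8) and 9.56% of the other QSC-only intervals (9.02 to 10.1). A QSC-only midpoint was that near for 13.8% of FISC-only members (12.2 to 15.5) and 12.4% of the other FISC-only intervals (11.7 to 13.1), with overlapping intervals. QSC-only members thus had a state-only neighbour of either list more often than QSC-only intervals elsewhere. For FISC-only members this was seen for their own list, and for the other list no difference was detectable beyond counting error. Distance to shared sites chose the members, and the intervals elsewhere include 3033 QSC-only and 922 FISC-only intervals in windows without a shared site. The shares were not split by window, so nothing about the members is read from them.

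The width of an interval is the only property besides position that the lists give, and it was not used by the rule beyond its part in overlap. Pooled over all windows, FISC-only members were wider than the other FISC-only intervals, and QSC-only members were not wider than the other QSC-only intervals. The others include 922 FISC-only and 3033 QSC-only intervals in windows without a shared site. The part of regional crowding in the pooled difference was not tested. The median was 359 bp for FISC-only members (95% order-statistic interval 354 to 365, n = 1599) and 341 bp for the other FISC-only intervals (339 to 344, n = 8301). It was 291 bp for QSC-only members (286 to 296, n = 944) and 292 bp for the others (290 to 293, n = 10497). Both classes were narrower than shared intervals of their list, which had medians of 412 bp in FISC (410 to 415) and 359 bp in QSC (357 to 362). The median of FISC-only members exceeded that of the other FISC-only intervals on 16 of 19 autosomes. For QSC-only members it was higher on 9 autosomes, lower on 9 and equal on 1.

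**Figure D3:**
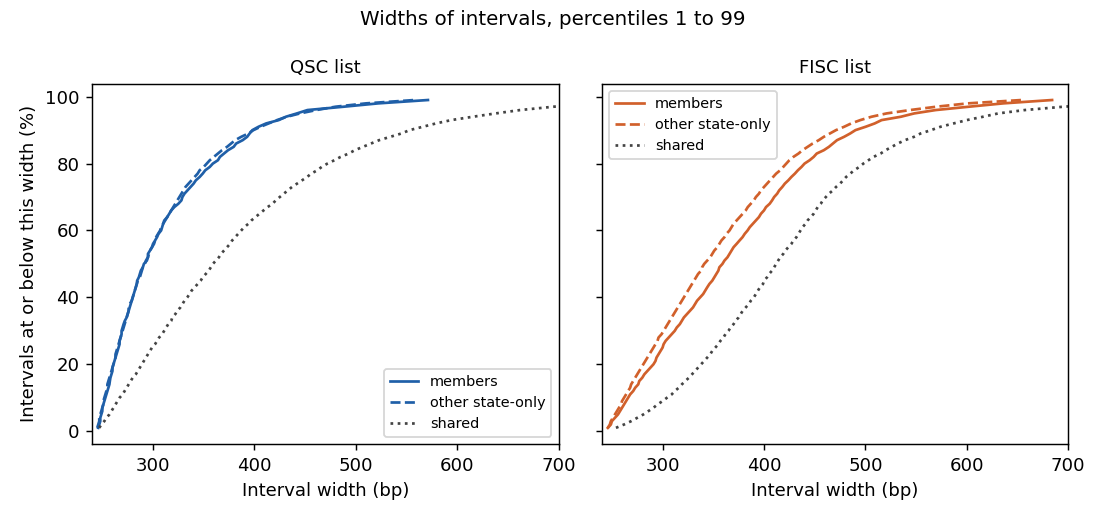
Percentiles 1 to 99 of interval width in the QSC list (left) and the FISC list (right), for members (solid), other state-only intervals (dashed) and shared intervals (dotted). The solid and dashed lines coincide in QSC, with medians of 291 and 292 bp, and are apart in FISC, with medians of 359 and 341 bp.

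The widths are also given by the crowding of the region. In windows with 1 to 3 shared sites, FISC-only members had a median width of 352.5 bp (340 to 364) and the other FISC-only intervals 336 bp (332 to 341). In windows with 4 to 7 shared sites the medians were 360 bp (350 to 369) and 345 bp (341 to 350). In windows with 8 or more they were 361 bp (354 to 370) and 358 bp (355 to 365). The intervals of members and others overlapped in the sparsest and the densest windows and touched in the middle group. A change of the width difference with crowding was not tested. In QSC the medians in the densest windows were 294 bp (285 to 300) for members and 295 bp (290 to 299) for the others. Within the 10 kb, width showed no trend with distance: FISC-only members ran from 348.5 bp (333 to 371) under 1 kb to 355 bp (330 to 370) at 9 to 10 kb, and QSC-only members from 300 bp (284 to 310) to 288 bp (274 to 334).

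Few members were wide for their list. The widest 10% of autosomal QSC intervals began at 471 bp and held 32 QSC-only members (3.39%, 95% Wilson interval 2.41 to 4.75), against 375 other QSC-only intervals (3.57%, 3.23 to 3.94) and 20.3% of shared QSC intervals. The widest 10% of FISC intervals began at 518.7 bp and held 108 FISC-only members (6.75%, 5.62 to 8.09) and 428 other FISC-only intervals (5.16%, 4.70 to 5.65). The intervals in FISC just overlap.

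The widest QSC-only member was chr19:46379262-46380312, 1051 bp wide and 976 bp from the midpoint of the shared site chr19:46378619-46379003. Its edge lay 258 bp from that site, which was listed as 385 bp in QSC and 404 bp in FISC. Second came chr15:100445273-100446074, 802 bp wide, 1384.5 bp from a shared site of 399 bp in QSC and 400 bp in FISC. Completing the 5 widest were chr6:85364828-85365499 (672 bp), chr10:42707303-42707962 (660 bp) and chr2:28372751-28373403 (653 bp), between 2187 and 4487 bp from their shared site. All 5 were wider than the QSC interval of the site they flanked, but they were picked for width, so nothing is read from this.

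The widest FISC-only member was chr18:61806749-61807811, 1063 bp wide, 3730.5 bp from a shared site listed as 292 bp in QSC and 358 bp in FISC. Its nearest QSC-only interval was 119430 bp away. The others were chr1:74830753-74831643 (891 bp), chr9:30750060-30750941 (882 bp), chr16:8412160-8412986 (827 bp) and chr9:45220019-45220842 (824 bp), between 3317.5 and 5700 bp from their shared site. Each of the 5 was wider than both intervals of its shared site, which picking the widest members nearly ensures. None lay under 22014 bp from a QSC-only interval, and the 5 widest QSC-only members lay 5787 to 34375 bp from a FISC-only interval. Of all FISC-only members, 13.8% had a QSC-only midpoint within 10 kb, and 21.1% of QSC-only members had a FISC-only one. Distances beyond 10 kb were not summarised for all members, so nothing is read from those of the widest.

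Shared sites with and without members beside them differed little in width. The QSC interval of the site had a median of 357 bp without members (354 to 361), 354 bp with QSC-only members alone (345 to 361), 369 bp with FISC-only members alone (362 to 374) and 371 bp with both (352 to 387). The FISC interval, at sites with a single partner, had medians of 411 bp (408 to 414), 412 bp (405 to 419), 415 bp (409 to 421) and 426 bp (414 to 443) in the same order. The QSC interval of sites with FISC-only members alone was the wider one against sites with none, 369 bp against 357 bp, with intervals that do not overlap. The FISC interval of sites with both classes, 426 bp against 411 bp, had an interval that just touches that of sites with none. The log2 ratio of FISC to QSC width had medians of 0.16, 0.19, 0.18 and 0.19, and their intervals all overlapped. A shared site flanked by FISC-only members was therefore not listed as relatively wider in FISC.

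The shared sites with the most members are described next. Ties in number were broken by the larger summed width of the members, so 4 of the 5 FISC-only sites below were taken from 23 sites with 3 members, and the fifth QSC-only site from 85 sites with 2. The only site with 4 FISC-only members was chr11:88834991-88835436, 446 bp in QSC and 522 bp in FISC. Of its members, 3 stood in a row 5325, 4515.5 and 3699.5 bp below its midpoint and the other 2661.5 bp above it. At chr17:73655007-73655268 the 3 FISC-only members also stood on 1 side, 4384.5, 3498 and 2294.5 bp below a shared site that was 262 bp wide in QSC and 400 bp in FISC. At chr9:45216370-45216765 they stood on the other side, 3863, 7628 and 8882.5 bp above, the nearest of them being 1 of the 5 widest FISC-only members. The site chr4:151351945-151352451 had members on either side, at 5289.5 and 2506 bp below and 3290 bp above. The site chr15:103012511-103013025 had 2 other shared sites within 10 kb, and its members lay 3960.5 bp below and 1021 and 8908.5 bp above.

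No shared site had more than 3 QSC-only members. At chr7:25316728-25317025, 298 bp in QSC and 391 bp in FISC, QSC-only members lay 1725 and 419.5 bp below and 2746.5 bp above the midpoint. At chr1:72925847-72926122 all 3 lay below, at 5465, 4375 and 1359.5 bp. At chr11:102439962-102440521 they lay 5932.5 and 1401.5 bp below and 2934 bp above. At chr12:112718102-112718415 they lay 6833 bp below and 2540.5 and 3587.5 bp above. The fifth site, chr16:93576944-93577327, had 2 QSC-only members, at 3271 bp below and 1013.5 bp above. No FISC-only member and no other shared site lay within 10 kb of these picks, which does not describe the other sites with 2. Likewise, no QSC-only member lay within 10 kb of the 5 FISC-only picks, and only chr15:103012511-103013025 among them had other shared sites there. Of all shared sites, 78.1% had no FISC-only and 86.5% no QSC-only member, and 19.2% had another shared site. Nothing particular to the picks is read from these absences.

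At 3 shared sites there were at least 2 members of each class. At chr8:87118284-87118635 the FISC-only members lay 2400 bp below and 1298.5 bp above the midpoint and the QSC-only members 2483.5 and 8044 bp above. At chr11:103193887-103194313 a QSC-only member 6328.5 bp below the midpoint stood between FISC-only members at 7436 and 5635 bp below, and a further QSC-only member lay 1426 bp above. At chr19:3581366-3581659 both QSC-only members lay below, at 5383 and 2245.5 bp, and both FISC-only members above, at 5256.5 and 6363.5 bp. No order of the classes along the chromosome was common to the 3 sites.

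**Figure D4:**
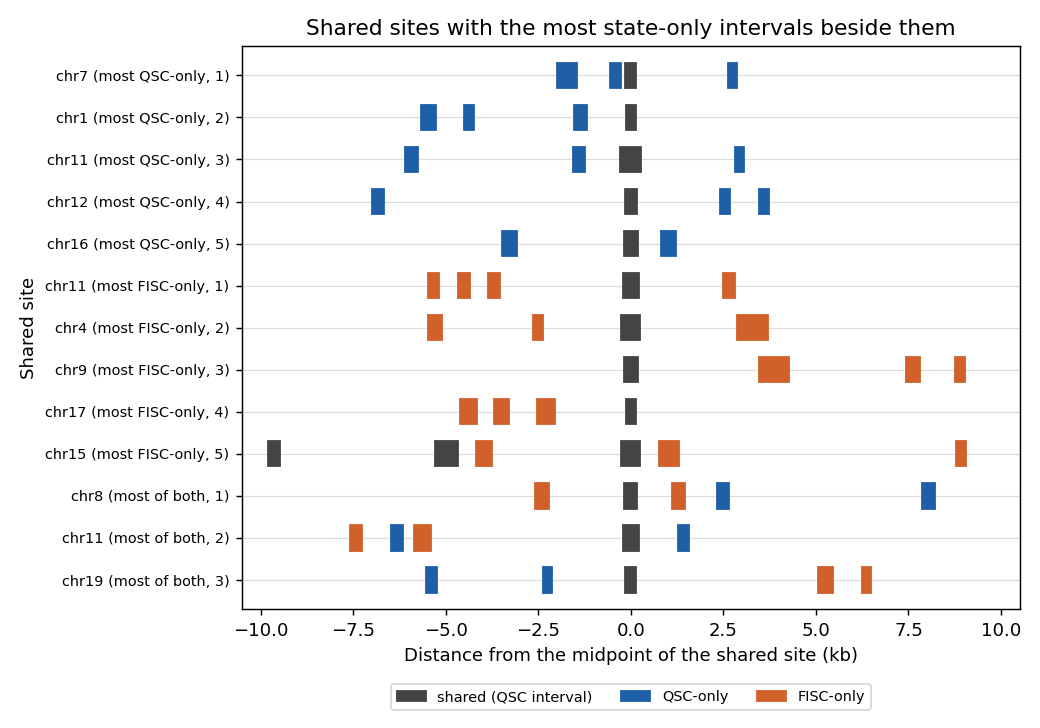
Intervals within 10 kb of the 13 shared sites named by the rule for the most members, each row centred on the midpoint of its shared site, with widths to scale. Members of 1 class fill the first 10 rows, up to 4 at a site, and the last 3 rows have 2 QSC-only and 2 FISC-only members each.

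On every one of the 19 autosomes a larger share of FISC-only than of QSC-only intervals was beside a shared site. The share ran from 8.82% on chromosome 16 to 21.8% on chromosome 11 for FISC-only, and from 4.72% on chromosome 12 to 14.3% on chromosome 11 for QSC-only intervals. The ratio of the shares had a median of 1.93 over autosomes and ran from 1.13 on chromosome 16 to 3.55 on chromosome 12. The Wilson intervals of the 2 shares did not overlap on 16 autosomes and overlapped on 3, chromosomes 4, 13 and 16. Chromosome 16 had 36 of 463 QSC-only intervals beside shared sites (7.78%, 95% Wilson interval 5.67 to 10.6) and 30 of 340 FISC-only intervals (8.82%, 6.25 to 12.3). Chromosome 12 had 25 of 530 (4.72%, 3.22 to 6.87) and 67 of 400 (16.8%, 13.4 to 20.7). Chromosome 11, which has 614 shared sites, gave the most FISC-only members of any autosome, 166 of 760 (21.8%, 19.1 to 24.9), and 89 of 621 QSC-only intervals there were members (14.3%, 11.8 to 17.3). Chromosome 7 gave the most QSC-only members, 94 of 739 (12.7%, 10.5 to 15.3).

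**Figure D5:**
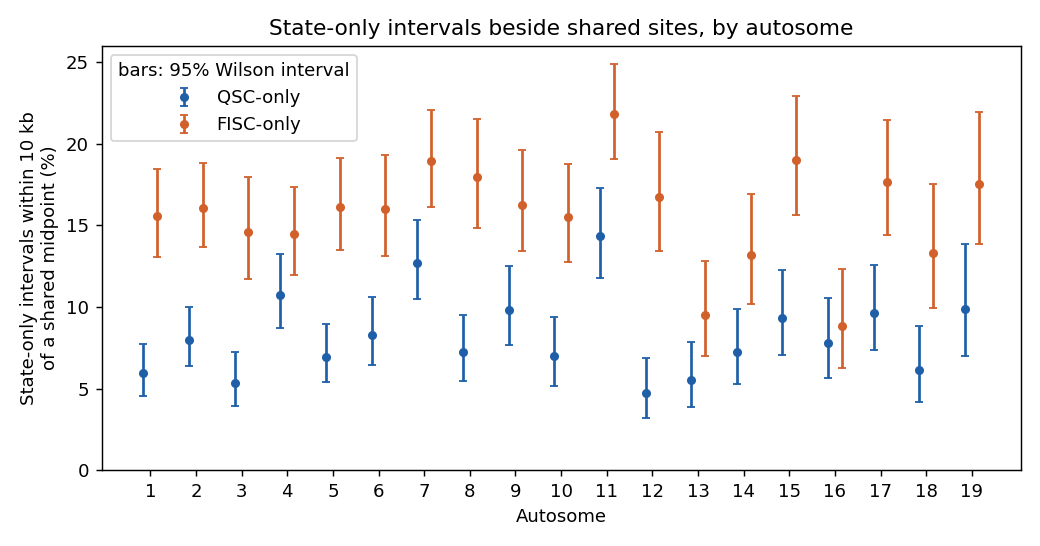
Share of QSC-only and FISC-only intervals within 10 kb of a shared midpoint on each of the 19 autosomes, with 95% Wilson intervals. The FISC-only point is the higher one on every autosome, from 8.82% against 7.78% on chromosome 16 to 21.8% against 14.3% on chromosome 11.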

How the data were processed

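CTCF ChIP-seq of QSC and FISC gave 1 deposited interval list per state. The submitters' processing notes name mm9 as the build and list HOMER, MACS2, Picard and Bowtie2 2.2.3 without saying what each did. The sources used here do not say how the 2 libraries of a state were combined, what threshold applied or how the input entered. The deposited lists carry positions alone, so depth is unknown and no interval could be ranked by strength; fewer calls in a list can follow from lower depth or a stricter threshold. An interval missing from a list may still be a place where CTCF was bound.

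Overlaps and distances were computed in Python 3.11.15 (numpy 2.4.6, scipy 1.17.1) and drawn with matplotlib 3.10.9. Member counts were checked with bedtools 2.31.1 and the steps tested on simulated data. Shares carry 95% Wilson intervals and medians 95% order-statistic (binomial) intervals. Densities carry exact Poisson intervals, and ratios exact binomial intervals for counts or log-scale intervals for percentages. All cover counting error only and treat intervals as independent, which neighbouring ones are not. No p-value was computed, since 1 list per state gives no replicates. Regions were named by rule: for each class the 5 shared sites with the most members, the 5 widest members, the nearest, and those either side of the limit, plus sites with 2 or more members of each class. Of the nearest 3 by that rule, 1 per class is printed. The members and these rules were chosen with earlier results of these data known. No mm9 sequence or annotation was used here, so no bases, motifs or genes are given.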

Additional observations from a re-analysis of the deposited data

How the results depend on the processing

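Of 59 values recomputed under 9 alternatives, 44 stayed within the 95% interval of the reported value and 15 moved. A change of direction was defined only for the ratio of the percentages, which stayed above 1 under all 9. The ratio of the FISC-only to the QSC-only percentage ran from 1.78 with a limit of 20 kb to 2.25 when state-only intervals came from the wider 50% of each list. A limit of 5 kb gave 4.75% of QSC-only and 9.37% of FISC-only intervals, and 20 kb gave 14.4% and 25.6%, as the limit itself sets. When intervals up to 500 bp apart counted as shared, 7.35% of QSC-only intervals were members. Members then lay beside 11.7% (QSC-only) and 20.3% (FISC-only) of shared sites, at median distances of 4673.25 and 4475.25 bp. With overlap of at least 50% of both intervals, 14.9% of FISC-only intervals were members, beside 23.7% of shared sites, and QSC-only members lay beside 15.7%. FISC-only intervals at or above the median width of the whole autosomal FISC list gave 18.6%. For none of these was the cause tested. The medians of width stayed within their intervals under all 6 alternatives run for them. Alternatives for the members at 500 to 1000 bp were chosen after seeing the data. Per member at 1000 to 1500 bp, there were 1.46 to 2.02 QSC-only and 0.963 to 1.06 FISC-only members under 4 alternatives, against 1.93 and 0.955. The planned stricter threshold could not be run without a score per interval. No paired analysis was possible because the replicate libraries have no values of their own in the lists, and no replicate could be left out. Unknown depth limits every statement on peaks found in 1 list.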

Other observations

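On the X chromosome, outside the rule, 8 of 632 QSC-only intervals (1.27%, 95% Wilson interval 0.643 to 2.48) and 18 of 295 FISC-only intervals (6.10%, 3.89 to 9.44) lay within 10 kb of 1 of its 101 shared midpoints. Both shares were below those of any autosome for their class. The FISC-only interval overlapped those of chromosomes 13 (6.98 to 12.8) and 16 (6.25 to 12.3). The autosome with the fewest shared sites, chromosome 18, had 210. The part of the number of shared sites in the shares on X was not tested.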
